A study of Mus musculus with 15 samples.

Results

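Troponin is the calcium switch of the striated muscle thin filament. Troponin C binds calcium, troponin I holds back the interaction of actin with myosin while calcium is low, and troponin T anchors the complex to tropomyosin. Each subunit has isoforms encoded by separate genes. Tnnc2, Tnni2 and Tnnt3 encode the fast skeletal forms, Tnni1 and Tnnt1 encode the slow skeletal forms of troponin I and T, Tnnc1 encodes the troponin C shared by slow skeletal muscle and heart, and Tnni3 and Tnnt2 encode the cardiac forms of troponin I and T. Mammalian muscle changes its troponin set as it develops: Tnnt2 and Tnni1 are transcribed in embryonic skeletal muscle, and their transcripts become scarce in adult fast muscle.

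The 8 troponin genes were chosen by gene symbol from the 56748 genes in each of the 3 deposited stage tables, and each symbol matched 1 gene identifier. The libraries came from the tibialis anterior (TA), a mostly fast muscle of the lower hind limb, of male C57BL/6 mice aged 8 weeks. Cardiotoxin (CTX), a snake venom toxin that kills muscle fibers and sets off their regeneration, was given at 50 µL of 0.1 mg/mL into the TA of 1 limb, in saline with the analgesic meloxicam. The Proliferation Stage (4 libraries) was collected at day 4 after CTX, the Differentiation Stage (4 libraries) at day 7 and the Maturation Stage (4 libraries) at day 14, beside the Uninjected group (3 libraries). All groups, Uninjected mice included, drank heavy water before collection for the protein synthesis measurements. The labels state 5 mice per group, and they number the libraries by subject. Per the labels and the study's methods, the control mice were given no CTX, and the Uninjected libraries carry the label of no injection. According to the labels the RNA came from purified muscle fibers, while their cell type field reads bulk tissue, and the methods describe fibers with the cells that stay attached to them. Depletion of leukocytes is described for the DNA and protein samples, not for the RNA. In such samples, fewer cells of a type and less RNA per cell cannot be told apart.

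Expression was deposited as FPKM, fragments per kilobase of gene scaled for each library. The scaling followed median-of-ratios size factors and not the fragment total, so the summed FPKM ran from 168508 in Proliferation Stage replicate 1 to 492337 in Uninjected replicate 3. The fragments recovered from those values came to 5198290 to 7208693 per library in the Proliferation Stage, 1471307 to 6292743 at the Differentiation Stage, 1479282 to 5544489 in Maturation Stage libraries and 2302617 to 4455081 among Uninjected libraries. Libraries were compared with limma, a linear model fitted across all genes, on log2(FPKM + 0.5), and a gene was called when its Benjamini-Hochberg adjusted p over all tested genes was below 0.05. A log2 fold change on this scale understates the change of a gene that is near 0 in one of the groups. An exact two-sided permutation test of mean FPKM accompanied each fit, and its smallest possible p was 0.0286 for 4 against 3 and for 4 against 4 libraries. These p-values set the difference between groups against the spread between libraries.

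In the GRCm38 build (GENCODE M21 annotation), the 8 genes lie in 3 neighbouring pairs and on 2 further sites. Tnni1 (chromosome 1, 135779434 to 135810989, plus strand) is followed after 25364 bases by Tnnt2 (135836354 to 135852260, plus strand). Tnnt1 (chromosome 7, 4504570 to 4516382, minus strand) is 1922 bases from Tnni3 (4518305 to 4524229, minus strand). Tnni2 (chromosome 7, 142441808 to 142444410, plus strand) is followed after 54425 bases by Tnnt3 (142498836 to 142516009, plus strand). Each pair joins a troponin I gene and a troponin T gene. Tnnc1 (chromosome 14, 31208312 to 31211729, plus strand) lies within Nisch on the opposite strand without sharing exon bases. Tnnc2 (chromosome 2, 164777161 to 164779967, minus strand) shares 592 of its 800 exon bases (74.0%) with exons of Ube2c on the opposite strand.

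The slow and cardiac genes Tnni1, Tnnt1, Tnnc1 and Tnnt2 were at 35.8 to 282 FPKM in every Proliferation Stage library, against at most 4.67 FPKM in any Uninjected library. All 4 passed the limma test in the Proliferation Stage, 3 of them passed it at the Differentiation Stage, and none did in Maturation Stage libraries. The exact permutation p was 0.0286 for each of the 4 in the Proliferation Stage. At the Differentiation Stage it was 0.0857 for Tnni1 and for Tnnt1, 0.171 for Tnnt2 and 0.2 for Tnnc1, so the calls there rest on limma alone. The fast genes Tnnt3 and Tnni2 were the most abundant troponin transcripts of the TA. They were below their Uninjected mean in all 4 Proliferation Stage libraries, but varied so much between those libraries that neither passed the limma test.

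**Figure D1:**
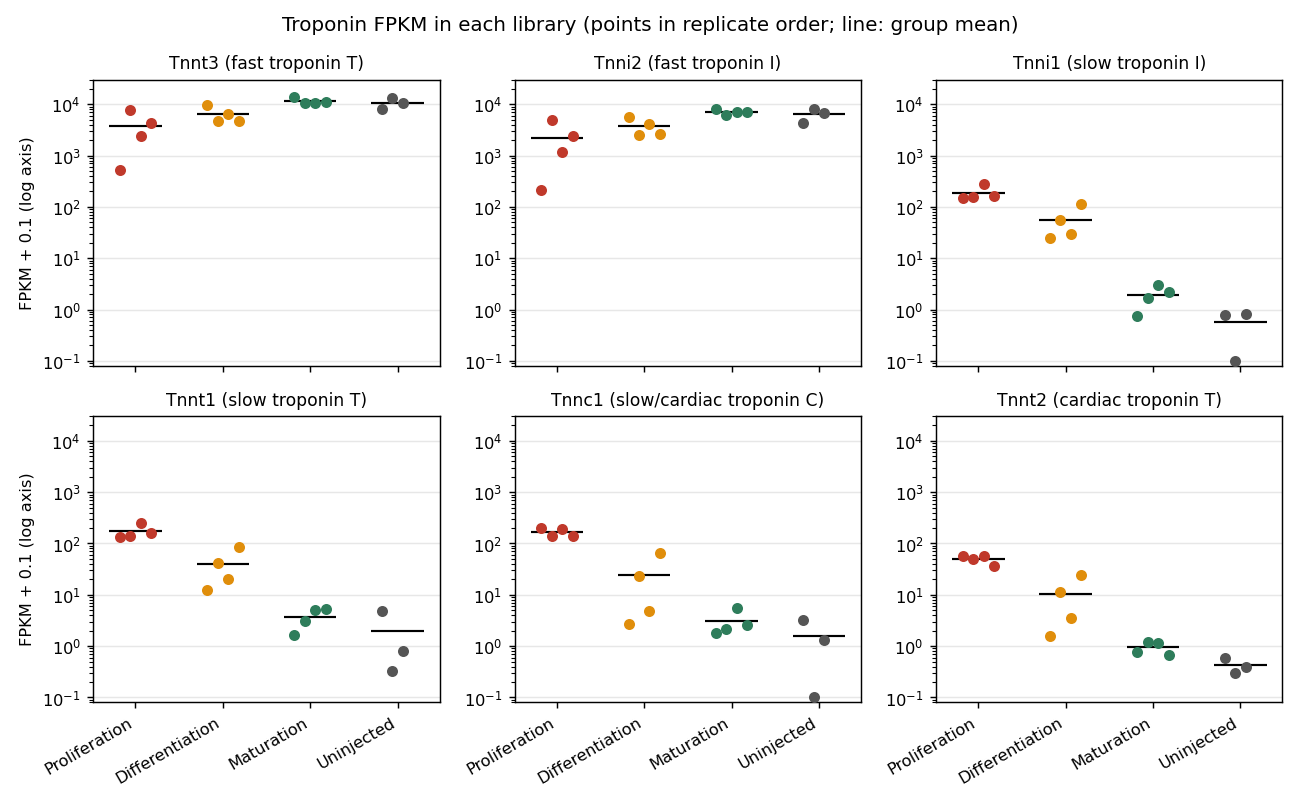
FPKM of Tnnt3, Tnni2, Tnni1, Tnnt1, Tnnc1 and Tnnt2 in every library (log axis, 0.1 added so that 0 can be drawn). Groups are in the order Proliferation, Differentiation, Maturation and Uninjected, with the mean of each group as a line. Tnnc2 and Tnni3 are not drawn. Tnni1, Tnnt1, Tnnc1 and Tnnt2 step down over the stages, whereas Tnni2 and Tnnt3 are lowest and most scattered in the Proliferation Stage.

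Tnni1, slow skeletal troponin I, was at 149.7, 157, 282 and 166 FPKM in the Proliferation Stage, 24.1, 55.2, 29.5 and 112 FPKM at the Differentiation Stage, 0.644, 1.61, 2.88 and 2.13 FPKM in Maturation Stage libraries, and 0.685, 0 and 0.710 FPKM among Uninjected libraries. Every Proliferation Stage and Differentiation Stage library was above every Uninjected library, and the Maturation Stage overlapped the Uninjected group. The mean was 189 ± 62.6 FPKM in the Proliferation Stage against 0.465 ± 0.403 FPKM among Uninjected libraries (SD, n = 4 and 3), a 406-fold ratio. The limma log2 fold change was 7.68 ± 0.375 (SE, adjusted p = 2.43e-05). The Differentiation Stage mean was 55.1 ± 40.1 FPKM (SD, n = 4), a 119-fold ratio to the Uninjected mean, with a log2 fold change of 5.69 ± 0.540 (SE, limma adjusted p = 0.000744). The Uninjected values rested on 6, 0 and 10 fragments, so the size of these ratios is imprecise.

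Tnnt1, slow skeletal troponin T, followed the same order of stages. It was at 133, 142, 248 and 162 FPKM in the Proliferation Stage, 12.2, 42.3, 20.2 and 84.0 FPKM at the Differentiation Stage, 1.58, 2.96, 4.88 and 5.08 FPKM in Maturation Stage libraries, and 4.67, 0.229 and 0.695 FPKM among Uninjected libraries. The first 2 stages lay wholly above the Uninjected group, and the Maturation Stage overlapped it. The log2 fold change was 6.66 ± 0.605 in the Proliferation Stage (SE, limma adjusted p = 2.73e-04), with 4.24 ± 0.782 at the Differentiation Stage (SE, limma adjusted p = 0.00633). Uninjected replicate 1 held 25 of the 32 fragments of the Uninjected group.

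Tnnc1, the calcium-binding subunit of slow muscle and heart, was at 197, 138, 196 and 140.3 FPKM in the Proliferation Stage, 2.59, 23.1, 4.68 and 64.6 FPKM at the Differentiation Stage, 1.67, 2.09, 5.53 and 2.45 FPKM in Maturation Stage libraries, and 3.16, 0 and 1.23 FPKM among Uninjected libraries. The Proliferation Stage values differed by at most 1.42-fold between libraries, the narrowest spread among the 4 slow and cardiac genes there. The Differentiation Stage values differed 25.0-fold, and replicate 1 lay below the highest Uninjected library. The log2 fold change was 6.82 ± 0.584 in the Proliferation Stage (SE, limma adjusted p = 2.06e-04). It was 3.09 ± 1.07 at the Differentiation Stage (SE, limma adjusted p = 0.0597), which did not pass the test. Without Differentiation Stage replicate 1, which rested on 4 fragments, it was 3.77 (limma adjusted p = 0.0229).

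Tnnt2, cardiac troponin T, was at 56.3, 49.1, 55.7 and 35.8 FPKM in the Proliferation Stage, 1.48, 11.2, 3.48 and 24.8 FPKM at the Differentiation Stage, 0.673, 1.12, 1.04 and 0.557 FPKM in Maturation Stage libraries, and 0.478, 0.196 and 0.297 FPKM among Uninjected libraries. None of the 3 stages overlapped the Uninjected group. The log2 fold change was 5.91 ± 0.224 in the Proliferation Stage (SE, limma adjusted p = 1.42e-05), with 3.09 ± 0.763 at the Differentiation Stage (SE, limma adjusted p = 0.0187). The Differentiation Stage call was lost without Uninjected replicate 2 (adjusted p = 0.0619) or replicate 3 (adjusted p = 0.0587). In the Maturation Stage the log2 fold change was 0.70 ± 0.271 (SE, limma adjusted p = 0.322).

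The promoters of these 4 genes, which moved together, are shown to set their sequences beside one another. Each run is the 250 bases before a RefSeq transcript start (GRCm38.p6), written 5′ to 3′ on the strand of the gene. Capitals mark matches on either strand to 3 motifs known from muscle genes: the E-box CANNTG, bound by MyoD family factors, the M-CAT element CATTCC, first described in the chicken cardiac troponin T promoter, and the MEF2-like letters CTANNNNTA. The windows are Tnni1 chr1:135799171-135799420 (plus strand), Tnnt1 chr7:4515976-4516225 (minus strand), Tnnc1 chr14:31208062-31208311 (plus strand) and Tnnt2 chr1:135836084-135836333 (plus strand). For Tnni1 and Tnnt2, which had 2 windows each, the one farther upstream is shown.
Tnni1: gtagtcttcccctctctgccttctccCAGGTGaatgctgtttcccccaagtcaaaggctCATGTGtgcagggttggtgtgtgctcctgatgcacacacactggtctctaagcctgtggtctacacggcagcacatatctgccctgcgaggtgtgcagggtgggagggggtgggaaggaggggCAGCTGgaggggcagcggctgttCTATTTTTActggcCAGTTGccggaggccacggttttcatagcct
Tnnt1: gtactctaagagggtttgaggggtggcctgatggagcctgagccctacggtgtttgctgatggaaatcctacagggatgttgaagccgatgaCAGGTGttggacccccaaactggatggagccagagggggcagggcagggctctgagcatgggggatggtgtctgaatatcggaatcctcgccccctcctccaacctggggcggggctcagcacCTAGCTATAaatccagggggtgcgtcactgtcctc
Tnnc1: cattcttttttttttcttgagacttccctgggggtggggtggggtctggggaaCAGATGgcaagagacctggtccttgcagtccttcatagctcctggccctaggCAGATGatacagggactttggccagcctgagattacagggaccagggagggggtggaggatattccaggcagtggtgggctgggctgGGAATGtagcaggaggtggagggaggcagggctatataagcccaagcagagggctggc
Tnnt2: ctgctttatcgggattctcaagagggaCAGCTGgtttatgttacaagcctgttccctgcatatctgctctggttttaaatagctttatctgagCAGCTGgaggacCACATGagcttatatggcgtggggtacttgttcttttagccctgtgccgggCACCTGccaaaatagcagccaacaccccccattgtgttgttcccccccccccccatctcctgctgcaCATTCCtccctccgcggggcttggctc

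The Tnni1 window held 4 E-boxes and, 37 to 45 bases before the start, the MEF2-like match CTATTTTTA. The Tnnt1 window held 1 E-box and the MEF2-like match CTAGCTATA 27 to 35 bases before the start. The Tnnc1 window held 2 E-boxes and an M-CAT match, read as GGAATG on this strand, 53 to 58 bases before the start. The Tnnt2 window held 4 E-boxes and the M-CAT match CATTCC 22 to 27 bases before the start. Among all 32851 RefSeq windows of the same length, 66.2% held an E-box, 12.6% held an M-CAT match and 19.0% held a MEF2-like match. The other Tnni1 window held 2 E-boxes and 1 MEF2-like match, and the other Tnnt2 window held 1 E-box, 2 MEF2-like matches and no M-CAT match. The Tnnc2 window held 2 E-boxes and the Tnni3 window 1, with neither of the other motifs. These matches describe the letters of the windows and were not tested for binding. Of the 8 troponin genes, 6 had an entry in the promoter table, with 8 windows in all.

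Tnnt3, fast skeletal troponin T, was at 517, 7744, 2394 and 4318 FPKM in the Proliferation Stage, 9473, 4761, 6557 and 4733 FPKM at the Differentiation Stage, 13628, 10579.9, 10556 and 10858 FPKM in Maturation Stage libraries, and 8227, 13320.5 and 10787 FPKM among Uninjected libraries. All Proliferation Stage libraries lay below the Uninjected libraries, but replicate 1 and replicate 2 differed 15.0-fold. The mean was 3743 ± 3086 FPKM in the Proliferation Stage against 10778 ± 2547 FPKM among Uninjected libraries (SD, n = 4 and 3). The log2 fold change was -2.06 ± 0.972 (SE, limma adjusted p = 0.134), and the exact permutation p was 0.0571. At the Differentiation Stage the log2 fold change was -0.79 ± 0.370 (SE, limma adjusted p = 0.139), and in Maturation Stage libraries it was 0.10 ± 0.202 (SE, limma adjusted p = 0.874).

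Tnni2, fast skeletal troponin I, was at 210.1, 5033, 1168 and 2443 FPKM in the Proliferation Stage, 5731, 2518, 4029 and 2611 FPKM at the Differentiation Stage, 7923, 6209, 7077 and 7049 FPKM in Maturation Stage libraries, and 4218, 7975 and 6780.1 FPKM among Uninjected libraries. The Proliferation Stage libraries stood in the same order as for Tnnt3 and differed 24.0-fold, and replicate 2 lay above the lowest Uninjected library. The log2 fold change was -2.21 ± 1.05 in the Proliferation Stage (SE, limma adjusted p = 0.136), -0.80 ± 0.403 at the Differentiation Stage (SE, limma adjusted p = 0.166) and 0.20 ± 0.228 in Maturation Stage libraries (SE, limma adjusted p = 0.741). After quantile normalization the Differentiation Stage values turned to 0.06 for Tnni2 and 0.23 for Tnnt3, neither called. Across all 15 libraries the ratio of Tnnt3 to Tnni2 FPKM stayed between 1.49 and 2.46. The mean ratio was 1.95 ± 0.398 in the Proliferation Stage, 1.75 ± 0.127 at the Differentiation Stage, 1.61 ± 0.115 in Maturation Stage libraries and 1.74 ± 0.189 in the Uninjected group (SD, n = 4, 4, 4 and 3).

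The lower fast troponin values in the Proliferation Stage depended on the fit. In 1 fit of all 15 libraries, which shares the estimate of the spread among groups, both fast genes were called lower (Tnnt3 limma adjusted p = 0.0328, Tnni2 limma adjusted p = 0.0388). The Proliferation Stage library with the lowest fast troponins, replicate 1, also had the lowest summed FPKM of 8 adult fiber markers (4169, against 17148 to 46875 in the other Proliferation Stage libraries and 47498 to 79123 in the Uninjected group) and the highest summed FPKM of 12 macrophage and leukocyte markers (3313, against 1373 to 2105 in the other Proliferation Stage libraries and 5.41 to 18.1 in the Uninjected group). The part of this mixture in the fast troponin values was not tested.

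The remaining members, Tnnc2 and Tnni3, were near the limit of detection. Tnnc2, fast skeletal troponin C and the usual calcium-binding partner of Tnni2 and Tnnt3, was at 0.181, 0.661, 1.73 and 0 FPKM in the Proliferation Stage, 2.53, 0.714, 1.74 and 0.519 FPKM at the Differentiation Stage, 0, 0, 0 and 0.491 FPKM in Maturation Stage libraries, and 0.514, 0.632 and 0.639 FPKM among Uninjected libraries. These values stand for 0 to 12 fragments per library, while Tnnt3 had at least 11299. Tnnc2 was thus near 0 in a muscle whose other fast troponins were its most abundant troponin transcripts, and it is the member that shares most of its exon bases with a gene on the opposite strand. The library kit is not stated to keep strand, and whether fragments in the shared bases were left out of the counts was not tested. The Tnnc2 level and the fast share of troponin C cannot be read from these data.

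Tnni3, cardiac troponin I, was at 0.281, 0.171, 0.558 and 0.239 FPKM in the Proliferation Stage, 0, 0.443, 0.337 and 0.201 FPKM at the Differentiation Stage, 0, 0, 0.372 and 0.190 FPKM in Maturation Stage libraries, and 0 FPKM in all 3 Uninjected libraries. The fragments behind them summed to 24 in the Proliferation Stage, 13 at the Differentiation Stage, 4 in Maturation Stage libraries and 0 in the Uninjected group. A count of 0 allowed up to 0.371 to 0.736 FPKM in the Uninjected libraries (3 fragments per library, counting error only), which is above most of the stage values, and no fold is given. Tnni3 did not reach the filter of 0.5 FPKM in 3 libraries and was not tested. The cardiac troponins thus differed in level, with Tnnt2 at 35.8 FPKM or more and Tnni3 at 0.558 FPKM or less in every Proliferation Stage library.

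Defining markers of heart muscle were also near 0. The summed FPKM of 11 cardiomyocyte markers was 0.210 to 1.45 in the Proliferation Stage, 0.198 to 1.72 at the Differentiation Stage, 0.503 to 1.96 in Maturation Stage libraries and 0.323 to 3.38 in the Uninjected group. Nkx2-5, a cardiac transcription factor, and Myl7, the atrial light chain, were at 0 in all 15 libraries, and only Myh6 reached the filter (log2 fold change -0.40 in the Proliferation Stage, limma adjusted p = 0.642).

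Over the list, the comparison of the Proliferation Stage with the Uninjected group called 4 of the 7 tested troponin genes higher and 0 lower, beside 29.2% of all tested genes called in either direction. The Differentiation Stage had 3 of 7 higher and 0 lower, beside 29.5% of all genes. The Maturation Stage had 0 of 7, beside 0.0245% of all genes (3 of 12253), and 3 troponin genes had an unadjusted limma p below 0.05 (Tnni1 and Tnnt2 higher, Tnnc2 lower), beside 13.2% of all genes. The groups did not overlap for 5, 3 and 2 of the 7 tested members in the Proliferation, Differentiation and Maturation Stages, while this held for 42.8%, 38.9% and 12.6% of all tested genes. The 2 in the Maturation Stage were Tnnt2 and Tnnc2, and for Tnnc2 the zeros allow levels above the Uninjected values.

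**Figure D2:**
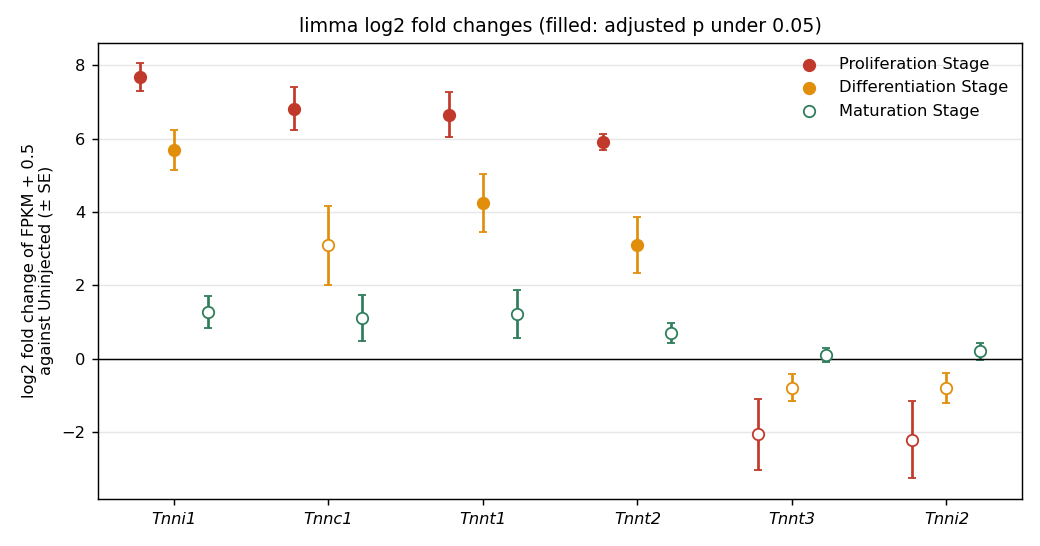
limma log2 fold changes of FPKM + 0.5 against the Uninjected group at each stage for the tested troponin genes other than Tnnc2. Bars are 1 SE, and filled points have an adjusted p below 0.05. Tnni1, Tnnt1 and Tnnt2 are filled in the first 2 stages, Tnnc1 in the Proliferation Stage alone, and no Maturation Stage point is filled.

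The stages were also compared with each other in 1 fit of all 15 libraries. At the Differentiation Stage relative to the Proliferation Stage, the 4 slow and cardiac genes fell and no troponin gene rose, so that 4 of 7 were called beside 3.06% of all genes. Tnnc1 was at 23.8 ± 28.8 FPKM at the Differentiation Stage and 168 ± 32.8 FPKM in the Proliferation Stage (SD, n = 4 each), with a log2 fold change of -3.73 ± 0.792 (SE, limma adjusted p = 0.0219). The fold change was -2.82 ± 0.555 for Tnnt2 (SE, limma adjusted p = 0.0145), -2.41 ± 0.609 for Tnnt1 (adjusted p = 0.0466) and -1.98 ± 0.461 for Tnni1 (adjusted p = 0.0325). No Differentiation Stage library overlapped the Proliferation Stage for these 4 genes, as was the case for 8.91% of all genes. With the subject number as a replicate block the count of calls was 1. All 4 were lost when the 2 stages were fitted alone (limma), or without Proliferation Stage replicate 3 or Differentiation Stage replicate 3, and the direction stayed the same in each.

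In the Maturation Stage relative to the Differentiation Stage, Tnni1, Tnnt1 and Tnnt2 fell and none rose. With Tnnc2, whose level cannot be read, 4 of 7 were called, beside 14.2% of all genes. Tnni1 was at 1.81 ± 0.938 FPKM in Maturation Stage libraries and 55.1 ± 40.1 FPKM at the Differentiation Stage (SD, n = 4 each), with a log2 fold change of -4.43 ± 0.461 (SE, limma adjusted p = 2.77e-04). The fold change was -3.03 ± 0.609 for Tnnt1 (SE, limma adjusted p = 0.00901) and -2.39 ± 0.555 for Tnnt2 (adjusted p = 0.0156). Tnnc1 changed by -1.99 ± 0.792 without passing the test (SE, limma adjusted p = 0.0997). The fourth call was Tnnc2 (log2 fold change -1.52, limma adjusted p = 0.0365), which rested on 0 to 2 fragments per library in the Maturation Stage and 1 to 8 at the Differentiation Stage. The 3 Maturation Stage zeros allow 1.44 to 2.72 FPKM (3 fragments per library), so no fall is shown for it. Without Differentiation Stage replicate 2 the calls numbered 2, since Tnnt2 (adjusted p = 0.0550) and Tnnc2 (adjusted p = 0.0601) were lost. The groups did not overlap for Tnni2 and Tnnt3, which were higher in every Maturation Stage library (exact permutation p = 0.0286 for each, the smallest possible), beside 24.7% of all tested genes without overlap. Neither passed the limma test (adjusted p = 0.347 and 0.351). With the 2 stages fitted alone, Tnni2 was called higher (limma adjusted p = 0.0405) and Tnnt3 was not (adjusted p = 0.0506).

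The Maturation Stage and the Proliferation Stage differed in 6 of 7 troponin genes, beside 33.8% of all genes called, with the fast and the slow genes moving in opposite directions. Tnni2 rose by 2.42 ± 0.727 on the log2 scale (SE, limma adjusted p = 0.0215) and Tnnt3 by 2.16 ± 0.650 (adjusted p = 0.0215). The slow and cardiac genes fell, with log2 fold changes of -6.41 (Tnni1), -5.71 (Tnnc1), -5.44 (Tnnt1) and -5.21 (Tnnt2), each with a limma adjusted p of at most 1.81e-04. The rise of both fast genes was lost without Proliferation Stage replicate 3 (limma adjusted p = 0.0580 for Tnni2 and 0.0573 for Tnnt3), and that of Tnnt3 without Maturation Stage replicate 1 (limma adjusted p = 0.0516). Both rises were also lost with quantile normalization, with the 2 stages fitted alone and by the unpaired test of the methods on FPKM. No slow or cardiac call was lost under any alternative.

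Within a subunit, the share of the slow and cardiac forms was read from FPKM in each library, as a description without a test. Tnni1 made up 41.6, 3.03, 19.5 and 6.38% of troponin I FPKM in the Proliferation Stage (mean 17.6 ± 17.5, SD, n = 4), 0.420, 2.14, 0.726 and 4.10% at the Differentiation Stage (mean 1.85 ± 1.68), 0.0262 ± 0.0136% in Maturation Stage libraries and 0.00890 ± 0.00824% in the Uninjected group (n = 3). Tnnt1 made up 18.8, 1.79, 9.20 and 3.59% of troponin T FPKM in the Proliferation Stage, and Tnnt2 7.96, 0.619, 2.07 and 0.794%. The mean Differentiation Stage shares were 0.763 ± 0.723% for Tnnt1 and 0.203 ± 0.226% for Tnnt2 (SD, n = 4). The spread within the Proliferation Stage came mostly from the fast genes, since Tnni1 differed by at most 1.89-fold there. By FPKM, fast isoforms were the larger part of both subunits in every library.

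**Figure D3:**
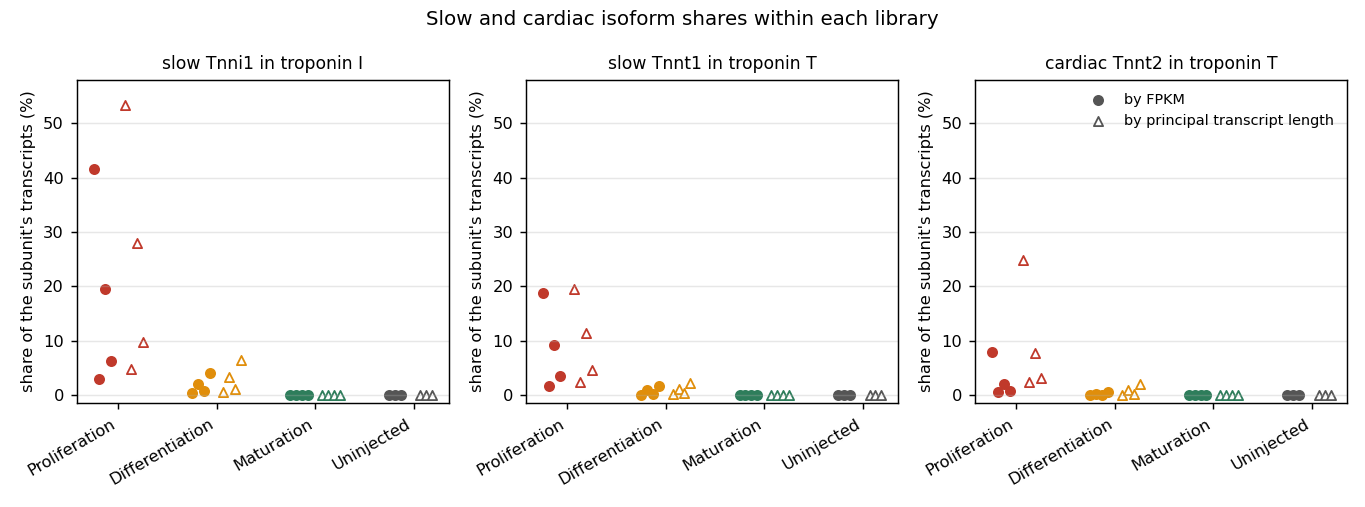
Share of Tnni1 in troponin I and of Tnnt1 and Tnnt2 in troponin T (percent) in every library, by FPKM (filled) and by the length of the principal transcript (open). The Proliferation Stage reaches 41.6% for Tnni1 by FPKM and 53.3% by transcript length, both in replicate 1, and the Maturation Stage and the Uninjected group lie at the axis.

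These shares depend on the length that a gene is given. The deposited FPKM divides by all exon bases of a gene, which exceed the length of the principal transcript of the annotation 6.46-fold for Tnnt2, 3.13-fold for Tnni1, 2.15-fold for Tnnt1, 1.95-fold for Tnni2 and 1.57-fold for Tnnt3. By principal transcript length, a choice made after the data were seen, the mean Proliferation Stage share was 24.0% for Tnni1, 9.52% for Tnnt1 and 9.55% for Tnnt2. In replicate 1 Tnni1 then came to 53.3% of troponin I, so that the fast form was not the larger part there. The ratio of Tnnt2 to Tnnt1 was 0.423, 0.346, 0.224 and 0.221 by FPKM in the Proliferation Stage, and 1.27, 1.04, 0.676 and 0.666 by principal transcript length. Which of the pair was more abundant can therefore not be told. Changes of a gene between groups are not touched by this choice.

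The Differentiation Stage libraries stood in 1 order for all slow and cardiac members. Replicate 4 was highest, followed by replicates 2, 3 and 1, for Tnni1, Tnnt1, Tnnc1 and Tnnt2. The ratio of highest to lowest was 25.0 for Tnnc1, 16.7 for Tnnt2, 6.87 for Tnnt1 and 4.62 for Tnni1. The fast genes ran nearly in reverse, with replicate 1 highest and ratios of 2.00 for Tnnt3 and 2.28 for Tnni2. The developmental myosin genes Myh3, Myh8, Myl4 and Myl6b stood in the order of the slow and cardiac troponins. So did the summed macrophage and leukocyte markers, at 1221 FPKM in replicate 4, 854, 335 and 85.4 FPKM in replicates 2, 3 and 1, and the summed satellite cell and myoblast markers, at 283, 149.0, 90.7 and 76.8 FPKM. The part of these cells in the spread was not tested.

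**Figure D4:**
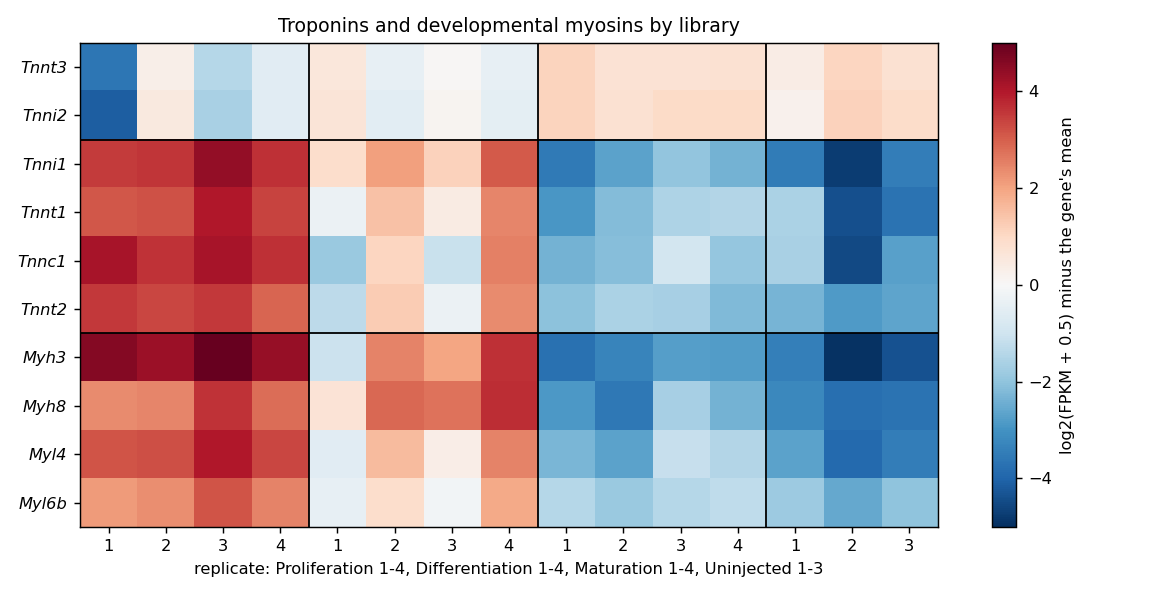
Colour map of log2(FPKM + 0.5) minus the mean of each gene. Rows are the troponins other than Tnnc2 and Tnni3, and the 4 developmental myosin genes. Columns are the 15 libraries (Proliferation 1 to 4, Differentiation 1 to 4, Maturation 1 to 4, Uninjected 1 to 3). Tnni1, Tnnt1, Tnnc1 and Tnnt2 share the order of the Differentiation Stage libraries with Myh3, Myh8, Myl4 and Myl6b, and Tnni2 and Tnnt3 are lowest in Proliferation Stage replicate 1.

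Within the slow set, the subunits did not keep constant proportions. The ratio of Tnnt1 to Tnni1 FPKM was 0.879 to 0.973 in the Proliferation Stage and 0.506 to 0.767 at the Differentiation Stage. The ratio of Tnnc1 to Tnni1 FPKM was 0.693 to 1.31 in the Proliferation Stage and 0.107 to 0.579 at the Differentiation Stage. Neither range overlapped between the stages. The lowest Tnnc1 to Tnni1 ratio, that of Differentiation Stage replicate 1, rested on 4 Tnnc1 fragments. In the Maturation Stage and the Uninjected group these ratios rested on 0 to 57 fragments per gene and library and are not given.

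Over the 15 libraries, the gene other than a troponin with the profile most like that of Tnni1 was Mymk, the muscle fusion protein myomaker (root mean square difference 0.675 on the log2 scale after each gene was centred), followed by Ctss, Myl4, Myh3 and Myh8. Myl4, the embryonic and atrial myosin light chain, was nearest to Tnnt1 (0.404), followed by Mpeg1 (0.661), Tmsb10, Gm3788 and Laptm5. It was also nearest to Tnnc1 (0.727), followed by Mpeg1 (0.785), Chrng, Gpnmb and Mymx. Tnnt2 was nearest to Laptm5 (0.505), followed by Apoe, Csf1r, Fcgr3 and Mymx. Each of the 4 slow and cardiac genes thus had at least 1 gene known from macrophages (Ctss, Mpeg1, Gpnmb, Laptm5, Csf1r or Fcgr3) among its 5 nearest, beside muscle genes such as Mymk, Mymx, Myl4 and Chrng, the embryonic subunit of the acetylcholine receptor. The fast genes had closer neighbours. Tnni2 was nearest to Myoz1, a Z-disc protein of fast fibers (0.128), followed by Cystm1, Ckm, Tpm1 and Trdn. Tnnt3 was nearest to Tmod4, a cap of the thin filament (0.146), followed by Tpm1, Trdn, Myoz1 and Pgm1. The difference between Tnni2 and Tnnt3 was 0.182. These are distances over libraries that share groups, among 6235 genes, and they say nothing of common control.

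Among the developmental myosins, all 4 (Myh3, Myh8, Myl4 and Myl6b) rose in the Proliferation Stage, with log2 fold changes of 4.65 for Myl6b to 8.81 for Myh3. All 4 rose at the Differentiation Stage, and none of 4 was called in Maturation Stage libraries. Over all tested genes, 29.2%, 29.5% and 0.0245% were called in these 3 comparisons. Of the slow and cardiac troponins, Tnnc1 was not called at day 7 (log2 fold change 3.09, limma adjusted p = 0.0597). The smallest myosin change there, that of Myl6b, was called at 2.69. Whether the myosins and these troponins differed was not tested. Between day 7 and day 4, all 4 of those troponins fell, and so did 3 of the 4 myosins, beside 3.06% of all tested genes called. Myh8, the perinatal heavy chain, was the myosin that was not called. Its mean was 103.6 FPKM at the Differentiation Stage and 107.7 FPKM in the Proliferation Stage (log2 fold change -0.30 ± 0.539, SE, limma adjusted p = 0.854). Among 9 slow fiber genes, 3 of 8 tested rose and 0 fell in the Proliferation Stage, beside 29.2% of all tested genes called. The largest rise was that of the slow calcium pump Atp2a2 (log2 fold change 3.87, limma adjusted p = 4.39e-04). Myl3, the slow and ventricular light chain, averaged 6.48 ± 6.98 FPKM in the Proliferation Stage against 22.8 ± 30.8 FPKM among Uninjected libraries (SD, n = 4 and 3, limma adjusted p = 0.546). Among Differentiation Stage libraries 3 of 7 tested slow fiber genes rose and 0 fell, beside 29.5% of all tested genes called. The slow fiber counts were not tested against those shares. The median log2 fold change of the slow fiber list was 1.12 in the Proliferation Stage and 2.01 at the Differentiation Stage, beside 0.05 and 0.06 over all genes.

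Among 11 fast fiber genes, 0 were called in the Proliferation Stage (median log2 fold change -2.35), beside 29.2% of all tested genes called. At the Differentiation Stage 2 fell, beside 29.5%. In Maturation Stage libraries 9 rose relative to the Proliferation Stage, as Tnni2 and Tnnt3 did, beside 33.8% of all tested genes called. Among 13 thin filament partners, 2 rose and 1 fell in the Proliferation Stage, beside 29.2% of all tested genes called in either direction. Actc1, the cardiac and embryonic actin, averaged 2198 ± 1287 FPKM in the Proliferation Stage against 278 ± 157 FPKM among Uninjected libraries (SD, n = 4 and 3, log2 fold change 3.01, limma adjusted p = 0.0143), and nebulin (Neb), the ruler of the thin filament, fell by 1.97 on the log2 scale (limma adjusted p = 0.0423). At the Differentiation Stage 4 thin filament partners rose and 1 fell, beside 29.5% of all tested genes called. In the Maturation Stage none of the 4 partner lists had a call, beside 0.0245% of all tested genes. These stage comparisons share the Uninjected libraries. In the same comparisons all 12 macrophage and leukocyte markers rose in the Proliferation and Differentiation Stages, beside 29.2% and 29.5% of all tested genes called. In Maturation Stage libraries 0 of 10 tested markers were called, beside 0.0245%.

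Protein fractional synthesis rate (FSR), the share of a protein newly made per day, was measured by heavy water labelling. Per the study's methods, mice were labelled over the days up to collection (3 days in the Uninjected group), whereas FPKM is the level at collection. The 2 measures thus cover unlike times. FSR was listed for the fast troponins Tnnt3, Tnnc2 and Tnni2. The values in the deposited table are the authors' log2 ratios of stage over control, 1 value per protein and stage. No replicate values were used here, so no error or test is given, and whether a ratio exceeds the spread between mice was not tested. For Tnnt3 the log2 FSR ratio was -0.57 in the Proliferation Stage, 2.78 at the Differentiation Stage and 1.90 in Maturation Stage samples, where the log2 ratio of mean FPKM was -1.53, -0.76 and 0.08. For Tnni2 the FSR ratio was -0.17, 2.21 and 1.85 in the same stages, and the FPKM ratio was -1.51, -0.76 and 0.16. Tnnc2 had FSR ratios of 0.28, 2.67 and 1.83, and its protein was thus measured although its transcript was near 0.

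The median log2 FSR ratio over all listed proteins was 0.01 in the Proliferation Stage (73 proteins), 2.19 at the Differentiation Stage (127 proteins) and 1.56 in Maturation Stage samples (125 proteins). Tnnt3 ranked 53 of 73, 24 of 127 and 36 of 125 from the top, Tnnc2 28, 31 and 44, and Tnni2 43, 63 and 41. The fast troponins thus ranked between 28 and 53 of 73 at day 4 and in the upper part of the list at day 14. At the Differentiation Stage their FSR ratios were above 0, as were those of 124 of the 127 listed proteins. The FPKM ratios of Tnnt3 and Tnni2 were below 0 there, but neither gene passed the limma test (adjusted p = 0.139 and 0.166). After quantile normalization their log2 fold changes were 0.23 and 0.06. The slow and cardiac troponin proteins had no FSR value in the table used here.

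**Figure D5:**
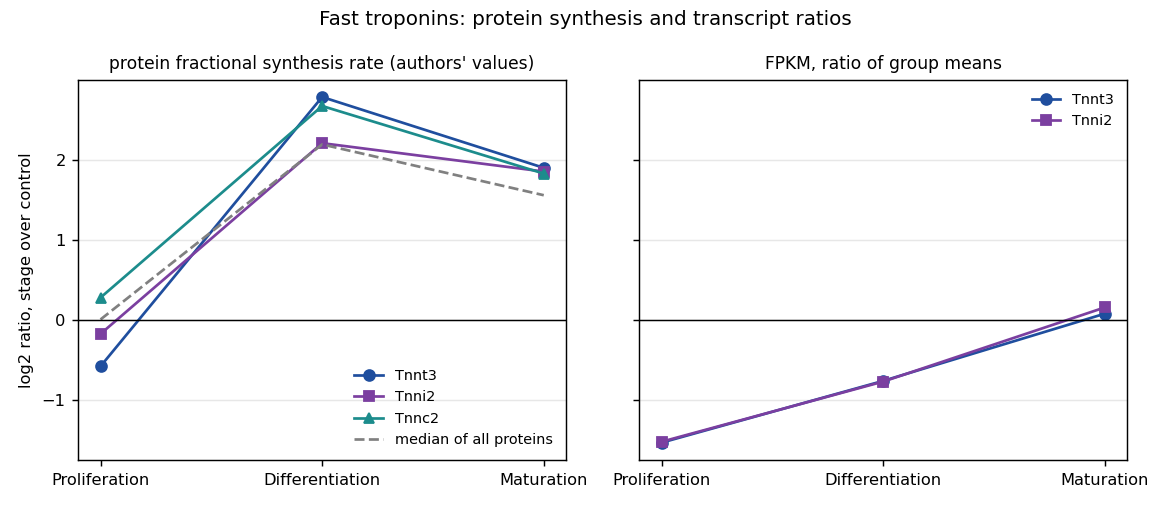
Left: the authors' log2 FSR ratio of stage over control for Tnnt3, Tnnc2 and Tnni2 at each stage, with the median of all proteins dashed. Right: log2 ratio of mean FPKM of stage over Uninjected for Tnnt3 and Tnni2. At the Differentiation Stage the FSR ratios are 2.21 to 2.78 and the FPKM ratios are -0.76 for both genes. FSR covers the labelling days and FPKM the day of collection.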

How the data were processed

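RNA sequencing libraries from 15 TA samples were grouped by the labels. The authors deposited gene values as FPKM in 3 stage tables of 56748 genes. Per the labels the genome build was mm10, and aligner and counter were not given in the sources used here. FPKM times exon length rose in whole steps (90.5 to 95.0% of low values within 0.01 of a whole number), which gave the fragments behind each value. The deposited denominators were proportional to median-of-ratios size factors within 1.70%, so the FPKM are already scaled for composition. The authors deposited protein FSR as log2 ratios, pooled per stage. Deposited fold changes and p-values were not used.

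Genes with 0.5 FPKM or more in 3 or more fitted libraries were tested on log2(FPKM + 0.5) with limma 3.58.1 (trend and robust, R 4.3.3) and Benjamini-Hochberg adjustment over all of them. Each stage was fitted with the Uninjected group, without a block, since equal subject numbers in different groups are different mice. The stages were compared in 1 fit of all 15 libraries. The script was tested on simulated data. Exact permutation tests used scipy 1.17.1. Intervals for counts of 0 cover counting error only.

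Alternatives were the pseudocount, the filter, the scaling, the moderation, the replicate block, the samples fitted, leaving out each library and the unpaired test of the methods. Transcript lengths and positions came from GENCODE M21, and promoters from RefSeq. Named genes were the 8 members, all developmental myosins, the largest and smallest change in each partner list, and the 5 nearest profiles. The members and lists were chosen with earlier results of these data known.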

Additional observations from a re-analysis of the deposited data

Results flagged for a closer look

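Of 24 groups of 4 libraries examined, 3 had a highest library farther from the others than Dixon's 95% limit allows, and chance gives about 1 in 20 such groups. These were Tnni1 in the Proliferation Stage (282 FPKM in replicate 3), Tnnt3 in the Maturation Stage (13628 FPKM in replicate 1) and Tnnc2 in the Maturation Stage (0.491 FPKM in replicate 4, the only one of the 4 above 0). The Tnnc2 value stands for 2 fragments, and the 3 zeros allow 1.44 to 2.72 FPKM, so it does not stand apart from them at this depth.

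The other results that drew attention were differences between stages by limma in 1 fit of all 15 libraries. Between the Differentiation and the Proliferation Stage the log2 fold changes were -3.73 for Tnnc1, -2.82 for Tnnt2, -2.41 for Tnnt1 and -1.98 for Tnni1. Between the Maturation and the Differentiation Stage they were -4.43 for Tnni1, -3.03 for Tnnt1, -2.39 for Tnnt2 and -1.52 for Tnnc2. That of Tnnc2 came from 0 to 2 fragments per library at Maturation and 1 to 8 at Differentiation, too few to show a fall. Between the Maturation and the Proliferation Stage they were -6.41 for Tnni1, -5.71 for Tnnc1, -5.44 for Tnnt1 and -5.21 for Tnnt2, and 2.42 for Tnni2 and 2.16 for Tnnt3. The spread of the fast genes in the Proliferation Stage and the adult fiber marker level of its replicate 1 moved together, and the part of that level in the difference was not tested.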

How the results depend on the processing

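The count of troponin genes called in the Proliferation Stage against the Uninjected group was 4, and 4 to 5 when a library was left out, 6 in 1 fit of all 15 libraries, and 2 by the unpaired test of the methods on FPKM, where Tnni1 and Tnnt1 had adjusted p of 0.0586 and 0.0554. At the Differentiation Stage it was 3, with 0 by the unpaired test and 2 to 6 when a library was left out, the 6 arising without Differentiation Stage replicate 1, where Tnnc1 was also called higher and Tnni2 and Tnnt3 lower. In the Maturation Stage it was 0 under all alternatives run. Between the Differentiation and the Proliferation Stage it was 4, with 1 at a pseudocount of 0.1, 2 without the filter, 2 when rescaled to an equal FPKM total, 1 when so rescaled without mitochondrial genes, 0 with the 2 stages alone, 0 by the unpaired test, and 0 to 4 when a library was left out. Between the Maturation and the Differentiation Stage it was 4, with 5 with the 2 stages alone, where Tnni2 was called higher, 0 by the unpaired test and 2 to 4 when a library was left out. Between the Maturation and the Proliferation Stage it was 6, and 4 to 6 when a library was left out or under the other settings. It was 4 with quantile normalization, the 2 stages alone and the unpaired test, where Tnni2 and Tnnt3 were no longer called. No called direction reversed. Of 810 values of single genes under the alternatives, 731 stayed on their side of the threshold, 69 lost their call and 10 gained one. By principal transcript length the mean Tnnt2 share was 9.55% in place of 2.86% in the Proliferation Stage and 0.821% in place of 0.203% at the Differentiation Stage.

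Rescaling to an equal FPKM total per library moved the median log2 fold change of all genes to 0.90 in the Proliferation Stage and 0.61 at the Differentiation Stage against the Uninjected group, and to -0.30, -0.52 and -0.78 for Differentiation against Proliferation, Maturation against Differentiation and Maturation against Proliferation. In the first of these comparisons the calls over all genes were 2649 higher and 1192 lower, and 5132 higher and 175 lower when so rescaled. Under it the fast troponins in the Proliferation Stage were at -1.16 (Tnnt3) and -1.32 (Tnni2), below that shifted median.

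With the subject number as a replicate block, the count was 1 between the Differentiation and the Proliferation Stage, 3 between the Maturation and the Differentiation Stage, and unchanged in the other 4 comparisons (4, 3, 0 and 6). Deviations of libraries with the same number correlated at -0.479 to 0.070 over the 6 comparisons, and the mice of different groups differ, so the numbers do not pair the libraries.

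Uninjected levels of the slow and cardiac genes rest on 0 to 25 fragments per library, which limits the size of their ratios, and the depth differs 4.90-fold between libraries.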
